A study of Drosophila melanogaster with 8 samples.

Results

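The 4 Hox genes measured here lay at or next to the lowest value of the array table in every S2 sample. None of their probe sets (groups of short probes read as 1 value) passed the test in any comparison, and neither did any other probe set. Low values were common in the table: 41.4% of all probe sets had no array above the highest Hox value, 1.32. Hox genes were taken by symbol from the annotation of the Affymetrix array: lab, pb, Dfd, Scr and Antp of the Antennapedia complex, and Ubx, abd-A and Abd-B of the Bithorax complex. Of these 8 genes, 4 had a probe set that names 1 gene, with 1 probe set each for pb (CG31481), Dfd (CG2189) and Scr (CG1030) and 3 for Antp (CG1028). All 6 probe sets thus belong to the Antennapedia complex. The genes lab, Ubx, abd-A and Abd-B are not analysed here. The 6 probe sets stand beside 18769 tested in all, and the 4 genes beside 11982 with at least 1 probe set. S2 is a Drosophila melanogaster cell line with features of blood cells (hemocytes).

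The 8 arrays form 4 groups of 2: dSTING RNAi with dsDNA, dSTING RNAi with mock transfection, control with dsDNA, and control with mock transfection. The RNAi groups received double-stranded RNA against dSTING (gene Sting), the fly homologue of the cyclic dinucleotide receptor STING, and the control groups a non-specific double-stranded RNA. After 3 days the cells of the dsDNA groups were transfected with a DNA of 90 nucleotides, mock cells got the lipid reagent without it, and all were lysed 24 hours later. Groups follow the titles and source names, since the genotype tag follows the DNA treatment in 4 samples.

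Hox genes encode homeodomain transcription factors that give the segments along the head-to-tail axis their identity. In flies they sit in 2 clusters on chromosome arm 3R, in an order that matches the body regions they specify. As background, Polycomb group proteins keep Hox genes silent in cells outside those regions, and trithorax group proteins maintain their expression where they are active.

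The arrays were first checked on the targeted gene and on cell type markers. Sting had intensities of 3.45 to 8.05 in the 4 dSTING RNAi arrays, against 48.7 to 53.1 in the 4 control arrays, so the levels follow the titles. Of 16 hemocyte markers, 8 lay above a mean log2(intensity + 1) of 3, an intensity of about 7 that is called level 3 here, and among them were the GATA factor srp at 43.7 and the collagen IV chain Col4a1 at 218. The other 8 lay below it, among them the defining markers Hml at 2.38, He at 1.21, Pxn at 1.14 and eater at 1.04. None of 6 neuronal and glial, 4 muscle, 4 fat body, 5 gut and 5 germline and follicle markers was above it, and the highest single value among them was 6.78, for a neuronal and glial marker. The summed hemocyte markers ranged from 594 to 662 in dSTING RNAi dsDNA, 616 to 635 in dSTING RNAi mock, 640 to 677 in control dsDNA and 603 to 659 in control mock arrays. Those ranges overlap. Summed neuronal and glial markers were 11.8 to 12.5 in dSTING RNAi dsDNA and 11.0 to 12.8 in dSTING RNAi mock arrays. They were 10.0 to 11.0 in control dsDNA and 10.3 to 10.7 in control mock arrays. The lowest RNAi array lay just above the highest control array, at 11.009 against 11.001. The share of all probe sets separated in this way was not computed. The gene elav had the highest mean of the 6, 5.14, and the others had 1.01 to 1.57. With both treatments averaged, 3 of the 6 were higher and 3 lower in RNAi cells. Their differences in log2(intensity + 1) ran from -0.07 to 0.34, with a median of 0.01. An unadjusted limma p under 0.05 was found for 1 of the 6, where 4.76% of all probe sets had one. Summed muscle markers were 4.69 to 5.28 in dSTING RNAi dsDNA and 5.01 to 5.10 in control dsDNA arrays, against 4.20 to 4.59 in dSTING RNAi mock and 4.42 to 4.50 in control mock arrays, higher in every dsDNA array. Of all single probe sets, 1.11% had every dsDNA array above every mock array. The 4 muscle markers had mean intensities of 1.01 to 1.32, where the lowest value of the array table is 1. With RNAi and control cells averaged, 3 of these 4 were higher and 1 lower with dsDNA. The part of these sums in the results was not tested. In such bulk samples fewer cells of a type and less RNA per cell cannot be told apart. Replicate 2 of dSTING RNAi dsDNA (-16.1) and replicate 2 of control mock (15.6) stood apart from the rest along the leading principal component (36.6% of variance).

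The lowest value in the table is 1, called the floor here. Along the complex, pb, which specifies mouthpart segments, was above the floor in 2 arrays. Its intensity was 1 in both dSTING RNAi dsDNA arrays and in both dSTING RNAi mock arrays, against 1.19 and 1 in control dsDNA and 1.14 and 1 in control mock arrays. Both values above the floor came from control cells, but each control group also held an array at the floor, so the groups overlap.

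Dfd, which specifies the mandibular and maxillary segments of the head, was above the floor in 2 arrays as well. It had 1.005 and 1 in dSTING RNAi dsDNA arrays, 1 and 1 in dSTING RNAi mock arrays, 1.007 and 1 in control dsDNA arrays and 1 and 1 in control mock arrays. The 2 values above 1 were both in dsDNA arrays and exceed the floor by under 0.01.

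Scr, which specifies the labial segment and the first thoracic segment and is needed for the salivary glands, had 1.0996 and 1.14 in dSTING RNAi dsDNA arrays and 1 and 1 in dSTING RNAi mock arrays. In control cells it had 1.04 and 1 in dsDNA arrays and 1.0996 and 1.32 in mock arrays. Scr was the 1 Hox gene whose groups did not overlap: the RNAi arrays lay above the control arrays with dsDNA and below them without it. In dsDNA-treated cells the groups did not overlap for 24.1% of all probe sets, with the RNAi arrays higher for 12.2%. In mock-treated cells this held for 28.9%, with the RNAi arrays lower for 15.6%, so that 1 of 6 Hox probe sets is close to the background.

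Antp, which specifies thoracic segments and, when expressed in the head, turns antennae into legs, had 3 probe sets. The one with the most values above the floor (1640208_s_at) had 1.16 and 1.22 in dSTING RNAi dsDNA arrays, 1 and 1.31 in dSTING RNAi mock arrays, 1.22 and 1.14 in control dsDNA arrays and 1.04 and 1.19 in control mock arrays. All 4 groups overlap, and it was above the floor in 7 of 8 arrays. A second (1624759_s_at) was at 1 in all 4 dSTING RNAi arrays, against 1.21 and 1 in control dsDNA arrays and 1 and 1.01 in control mock arrays. The third (1638665_at) was at 1 in every array but replicate 1 of dSTING RNAi dsDNA, which had 1.008. The suffix _s_at marks probes that match several transcripts, and the 3 probe sets are not independent measurements of the gene.

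**Figure D1:**
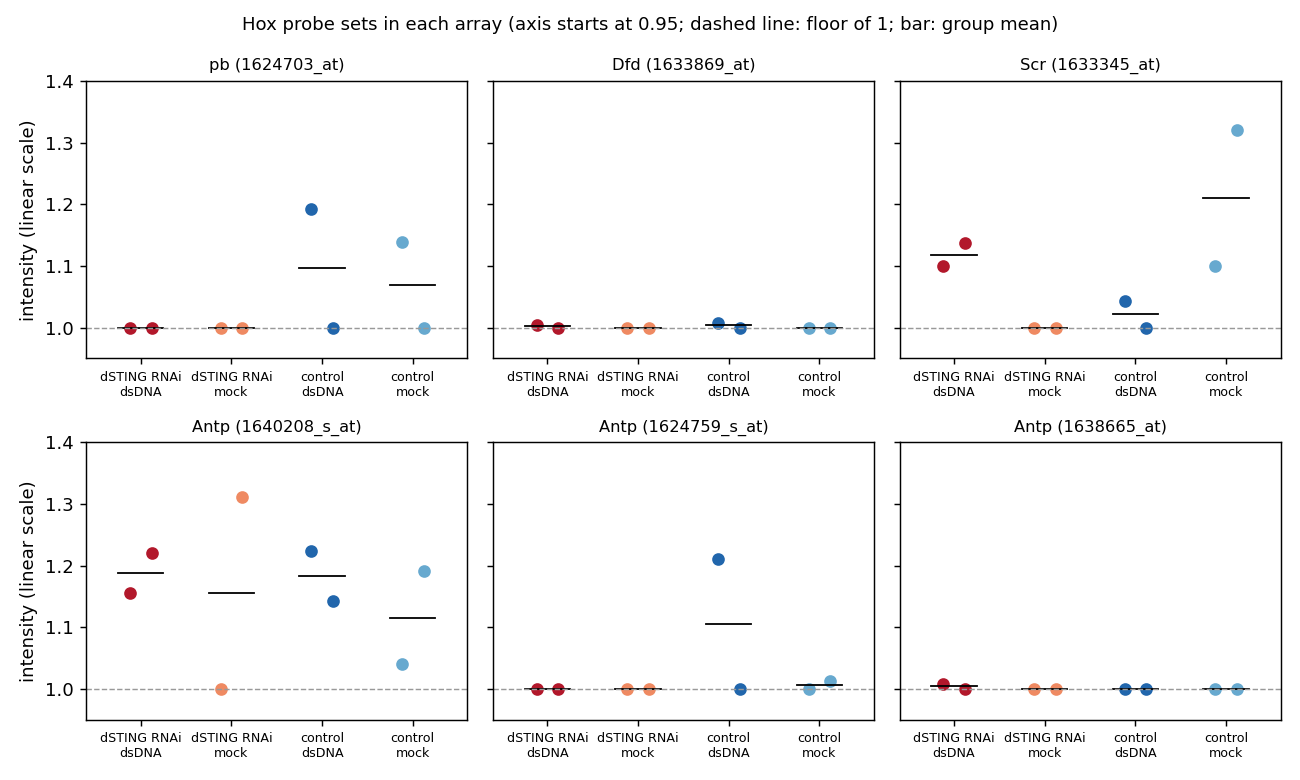
Intensity (vertical axis, linear scale, starting at 0.95) of the 6 Hox probe sets in each array, by group (horizontal axis). Points are single arrays, bars the mean of the 2 arrays of a group, and the dashed line the floor of 1. The highest value is 1.32, for Scr in a control mock array, and 29 of 48 values lie on the floor.

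Over the 6 probe sets and 8 arrays, 29 of 48 values (60.4%) were exactly at the floor of 1, where 22% of all values of the arrays lie. Values at the floor have no order among themselves. At least 6 arrays were at the floor for 4 of the 6 probe sets, and for 8.74% of all probe sets. None of the 6 was at the floor in all 8 arrays. The highest Hox value was 1.32, and 41.4% of all probe sets had no array above that value. The median over all probe sets was 1.18 to 1.22 in the 8 arrays, and Antp 1640208_s_at had a mean of 1.16. None of the 6 lay above level 3, and none above a level of 2, while 22.3% and 29.7% of all probe sets did. A silent gene and a probe set that binds poorly cannot be told apart here.

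The floor was not spread evenly over the arrays. Of 12 Hox values in each group, 6 were at the floor in dSTING RNAi dsDNA, 11 in dSTING RNAi mock, 6 in control dsDNA and 6 in control mock. All 6 probe sets were at the floor in replicate 1 of dSTING RNAi mock, while 1 of 6 was in replicate 1 of control dsDNA. That control dsDNA array also had the smallest share of all its values at the floor, 19.6%, against 21.9% in the first of these and 24.1% in replicate 2 of dSTING RNAi dsDNA. The part of this array-wide share in the Hox values was not tested.

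The knockdown in dsDNA-treated cells is the comparison the project was set up for. Of the 6 Hox probe sets 0 passed an adjusted p of 0.05 in limma, as did 0 of all probe sets (0%). The targeted gene Sting was thus not called either, here or in any other comparison, so 0 Hox calls say little about change. None of the 6 had an unadjusted limma p under 0.05, where 4.51% of all probe sets did. Differences in log2(intensity + 1) ran from -0.07 for Antp (1624759_s_at, SE 0.05) to 0.07 for Scr (SE 0.05). The Antp value rests on replicate 1 of control dsDNA: it was 0 without that array and -0.14 without replicate 2 of control dsDNA. The median over the 6 was 0.0011, and the median absolute difference was 0.035, against 0.049 over all probe sets. pb had -0.07 (SE 0.06).

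In mock-treated cells the knockdown also gave 0 calls among the Hox probe sets and 0% of all. Scr had the smallest p, with a mean intensity of 1 in dSTING RNAi cells and 1.21 ± 0.16 in control cells (SD, n = 2 each), a log2 difference of -0.14 (SE 0.05). Its unadjusted limma p was 0.0386, and 4.72% of all probe sets had one under 0.05. Adjusted over all probe sets, limma gave it a p of 1. The other 5 probe sets had differences of -0.05 to 0.02. Without replicate 2 of control mock, the array with 1.32, the difference of Scr was -0.07, and without replicate 1 it was -0.21.

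With dsDNA in control cells, limma called 0 Hox probe sets and 0% of all, and no Hox probe set had an unadjusted p under 0.05, where 5.25% of all did. Scr had 1.02 ± 0.03 in dsDNA-treated and 1.21 ± 0.16 in mock-treated cells (SD, n = 2 each), a log2 difference of -0.13 (SE 0.05, adjusted limma p 0.912). It was -0.05 without replicate 2 of control mock and -0.20 without replicate 1. Its arrays did not overlap here either, which held for 29.2% of all probe sets, with dsDNA arrays lower for 15.6%. Antp had 0.07 (SE 0.05) by 1624759_s_at, 0.05 (SE 0.08) by 1640208_s_at and exactly 0 by 1638665_at, which was at the floor in all 4 of those arrays.

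With dsDNA in dSTING RNAi cells, limma again called 0 Hox probe sets and 0% of all, and 0 had an unadjusted p under 0.05 (4.37% of all). Scr had 1.12 ± 0.03 with dsDNA and 1 without (SD, n = 2), a log2 difference of 0.08 (SE 0.05), with no overlap, as in 26.4% of all probe sets, with dsDNA arrays higher for 13.2%. pb and one Antp probe set (1624759_s_at) were at the floor in all 4 of these arrays and so had no measurable difference.

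The difference between the dsDNA effects in dSTING RNAi cells and in control cells was tested as an interaction. Limma called 0 Hox probe sets and 0% of all. Scr had the largest value of the 6, 0.21 (SE 0.07), with an unadjusted limma p of 0.0334 and an adjusted p of 1. Unadjusted p under 0.05 were found for 4.19% of all probe sets. Without the 2 arrays that stand apart, the value of Scr was 0.12, and without replicate 2 of control mock alone it was 0.14. The other 5 had -0.07 to 0.003.

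With both treatments averaged, 4 arrays a side, limma called 0 of the 6 for the knockdown and 0 for dsDNA (0% of all probe sets in each). None had an unadjusted p under 0.05, where 4.76% and 5.38% of all did. For the knockdown, pb had the smallest p, at 1 in every RNAi array and a mean of 1.08 in control arrays, a difference of -0.06 (SE 0.04, adjusted limma p 0.993). It was -0.02 without replicate 1 of control dsDNA, -0.03 without replicate 1 of control mock and -0.09 without replicate 2 of control dsDNA. For dsDNA, Antp (1624759_s_at) had 0.03 (SE 0.04, adjusted limma p 0.895), which rests on replicate 1 of control dsDNA: without it the difference was -0.0024, and without replicate 2 it was 0.070. The knockdown comparisons and the dsDNA comparisons use the same 8 arrays and are not independent of each other.

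**Figure D2:**
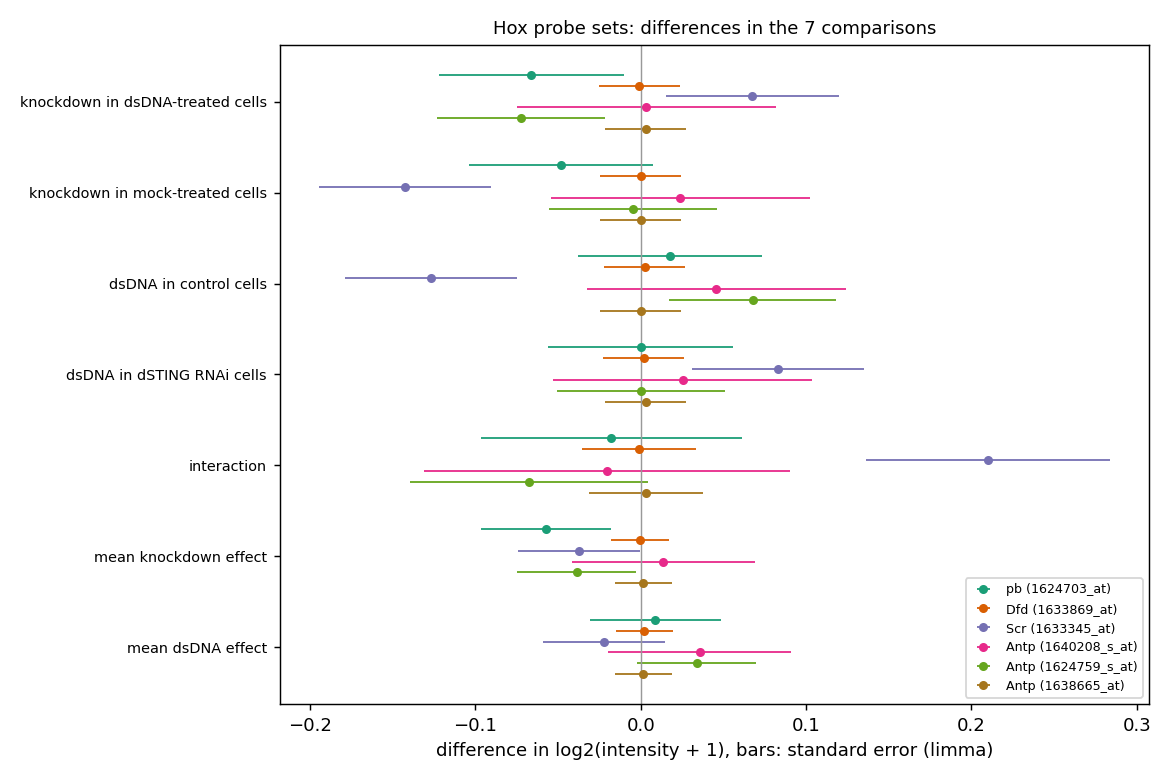
Differences in log2(intensity + 1) (horizontal axis) of the 6 Hox probe sets in the 7 comparisons (vertical axis), with bars for the standard error from limma. Positive values are higher in dSTING RNAi cells (knockdown comparisons) or in dsDNA-treated cells (dsDNA comparisons). Scr lies at -0.14 and 0.07 in the 2 knockdown comparisons, and no point passed the adjusted threshold.

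Genes that share the complexes with the Hox genes were also low. Between lab and Antp in the RefSeq gene order (Release 6 plus ISO1 MT assembly), 12 genes other than Hox genes had a probe set, and 0 lay above level 3. They include the homeobox genes zen, zen2, bcd and ftz, which arose from Hox genes but act in the early embryo in other roles, with mean intensities of 1.14, 1.06, 1.06 and 1.04. Cuticle genes of the same stretch, Edg84A and 3 of the Ccp84A group, had means of 1.01 to 1.25. Ama, which encodes a secreted immunoglobulin-domain protein, was the 1 gene of the stretch with no array at the floor. It had 2.29 and 3.90 in dSTING RNAi dsDNA, 2.28 and 2.77 in dSTING RNAi mock, 3.66 and 3.11 in control dsDNA and 2.75 and 2.38 in control mock arrays. Its highest and lowest values lie within the RNAi groups, and its mean dsDNA difference of 0.24 (SE 0.14) did not pass. The cuticle gene Ccp84Ac had 1.32 and 1.34 in dSTING RNAi dsDNA, 1 and 1.24 in dSTING RNAi mock, 1.45 and 1.36 in control dsDNA and 1.14 and 1.14 in control mock arrays. All 4 dsDNA arrays lay above all 4 mock arrays, as for 1.11% of all probe sets, a separation picked out after the values were seen, with a mean difference of 0.15 (SE 0.04, adjusted limma p 0.894).

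Within the Bithorax complex 2 genes had a probe set. The non-coding RNA lncRNA:iab8, the precursor transcript of the microRNA mir-iab-8, had 5 probe sets, whose means were 1.04 to 1.15 and whose highest value was 1.34. CG31275 had a mean of 1.06. Over both complexes, 0 of 18 measured genes lay above level 3, where 29.6% of all genes did. The 18 include the 4 measured Hox genes, all of the Antennapedia complex, and no Hox gene of the Bithorax complex. In each of the 7 comparisons limma called 0 of the 25 probe sets of these genes (0% of all). An unadjusted limma p under 0.05 was found for 0 to 2 of them, where 4.19% to 5.38% of all probe sets had one.

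Genes above level 3 lay right beside the complexes on 2 of 4 sides, next to lab and next to Ubx. The 10 nearest measured genes on each side, a choice made after the values were seen, held 4 above level 3 on every side. Together they held 16 of 40 (40%), against 29.6% of all genes. Next to lab lay the DNA repair gene agt with a mean of 21.0, twr with 141, CG1307 with 49.3 and Taf1, a subunit of the general transcription factor TFIID, with 7.84. Next to Ubx lay the chaperonin subunit gene CCT3 with 156. Beyond Abd-B the first gene above level 3 was the fourth measured one, CG18622, with 12.4. Beyond Antp the 5 nearest measured genes (Sodh1, CG1979, dj, djl and Mst84B) had means of 1.002 to 1.12, and the sixth, CG1105, had 11.5. The share of genes above level 3 in the flanks was not tested against that inside.

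**Figure D3:**
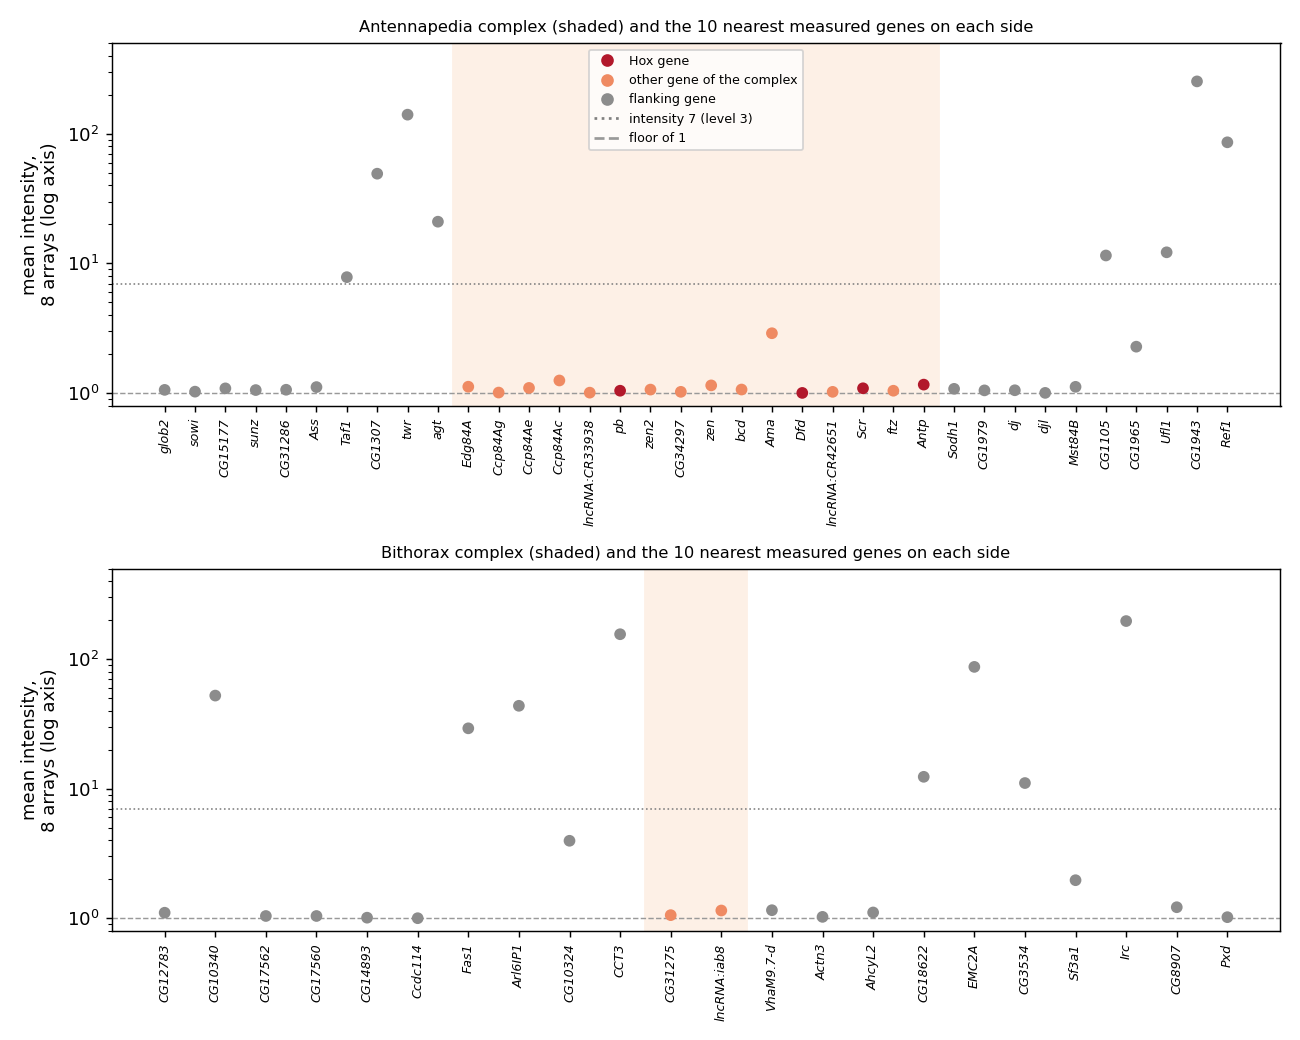
Mean intensity over 8 arrays (vertical axis, log scale) of each measured gene in chromosome order (horizontal axis, not to scale) for the Antennapedia and Bithorax complexes (shaded) and the 10 nearest measured genes on each side, each by its brightest probe set. No gene within the shading reaches the dotted line at an intensity of 7, where Ama has 2.89.

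Most regulators of Hox silencing had a clear signal. Of 29 listed Polycomb group genes 21 had a probe set and 14 lay above level 3 (66.7%, against 29.6% of all genes). Among them were sxc, which encodes the O-GlcNAc transferase, at a mean of 58.8, Caf1-55, a histone-binding subunit of Polycomb repressive complex PRC2 and of other complexes, at 43.6, and the histone deacetylase gene HDAC1 at 24.8. Named after their levels were seen, the PRC2 genes E(z), the methyltransferase, and Su(z)12 had 8.46 and 22.7, and the PRC1 genes Psc and Sce had 13.8 and 12.9. Pc itself, the chromodomain subunit of PRC1, lay below level 3. It had 2.76 to 3.77 in dSTING RNAi dsDNA, 2.73 to 3.03 in dSTING RNAi mock, 3.05 to 3.62 in control dsDNA and 2.42 to 2.57 in control mock arrays, with a mean dsDNA difference of 0.22 (SE 0.09) that did not pass.

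No Polycomb group gene was called by limma in any of the 7 comparisons (0% of all probe sets), and 1 or 2 of 21 had an unadjusted p under 0.05 in each, where 4.19% to 5.38% of all probe sets had one. Caf1-55 had 41.3 and 43.0 in dSTING RNAi dsDNA, 39.7 and 40.6 in dSTING RNAi mock, 46.6 and 50.9 in control dsDNA and 42.3 and 44.5 in control mock arrays. Its RNAi arrays lay below the control arrays within each treatment, as for 2.24% of all probe sets, with a mean knockdown difference of -0.16 (SE 0.04, adjusted limma p 0.978). The zinc finger gene jing, near the floor, had 0.20 (SE 0.04, adjusted limma p 0.8). The median mean-knockdown difference of the 21 genes was 0.035, against -0.0003 over all probe sets, many of which lie near the floor.

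Of 32 trithorax group genes 26 were measured and 16 lay above level 3 (61.5%, against 29.6% of all genes). The SWI/SNF remodeller genes mor and brm had means of 50.5 and 33.8, and the chromodomain helicase gene kis 48.3. Limma called none in the 7 comparisons (0% of all probe sets). An unadjusted limma p under 0.05 was found for 0 or 1 in each, where 4.19% to 5.38% of all probe sets had one. In the mean dsDNA effect 21 of 26 had positive and 5 negative differences, with a median of 0.05. The median over all probe sets, many of which lie near the floor, was 0. Of the 21 Polycomb group genes, 15 had positive and 6 negative differences in the same effect, with a median of 0.047. The trithorax group gene dom, an ATPase gene of a histone exchange complex, had 0.26 (SE 0.07, adjusted limma p 0.894). Of 14 measured insulator and boundary factor genes, 6 lay above level 3 (42.9%, against 29.6% of all genes). Cp190 had a mean of 41.1, Ibf2 38.9 and Clamp 23.7. Limma called 0 of the 14 (0% of all probe sets). An unadjusted limma p under 0.05 was found for 0 to 2 in each comparison, beside the same 4.19% to 5.38% of all. CTCF, which binds boundaries of the Bithorax complex, lay just below level 3 at 6.97.

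Genes that act with or under Hox proteins were mostly low. Of 5 measured cofactors and collaborators only the zinc finger gene tsh was above level 3. It had 11.4 to 12.7 in dSTING RNAi dsDNA, 11.1 to 13.3 in dSTING RNAi mock, 11.4 to 12.2 in control dsDNA and 10.6 to 14.1 in control mock arrays, with a mean knockdown difference of 0.01 (SE 0.11). Of the others, disco-r and en had means of 1.12 and 1.11. The 11 measured genes reported as Hox targets held 1 above level 3, again tsh, while Dll, vg and bab2 had means of 1.26, 1.09 and 1.41. Of 15 measured gap and pair-rule genes, which set Hox domains in the embryo, only hry, the hairy repressor gene, was above level 3, at a mean of 477. Limma called no gene of these 3 lists in any comparison (0% of all probe sets). An unadjusted limma p under 0.05 was found for 0 cofactors, 0 to 2 targets and 1 to 3 gap and pair-rule genes in each. Of all probe sets 4.19% to 5.38% had one. The 3 of 15 came from the knockdown in dsDNA-treated cells (4.51% of all). The genes tsh and en each belong to more than 1 of these lists.

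Low signal was shared by most homeobox genes outside the complexes. Of 66 measured, 3 (4.55%, against 29.6% of all genes) lay above level 3, and 34 had a mean under 1.1. The 3 were the LIM homeobox gene ap at 134, zfh1, a repressor gene known from hemocytes, at 98.9 and btn at 12.1. ap had 133 and 136 in dSTING RNAi dsDNA, 127 and 137 in dSTING RNAi mock, 142 and 144 in control dsDNA and 119 and 133 in control mock arrays, and its mean knockdown difference was -0.01 (SE 0.05). Limma called none of the 66 in any comparison. An unadjusted limma p under 0.05 was found for 9 of 66 for dsDNA in control cells (5.25% of all probe sets) and for 7 for the knockdown in dsDNA-treated cells (4.51% of all). It was found for 1 for the knockdown in mock-treated cells (4.72% of all), 5 for dsDNA in dSTING RNAi cells (4.37%) and 5 for the interaction (4.19%). The mean knockdown effect had 6 (4.76%) and the mean dsDNA effect 1 (5.38%). The smallest p in the mean knockdown effect belonged to dim genes, al at -0.21 (SE 0.03) and eve at -0.12 (SE 0.02), both with an adjusted limma p of 0.8.

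**Figure D4:**
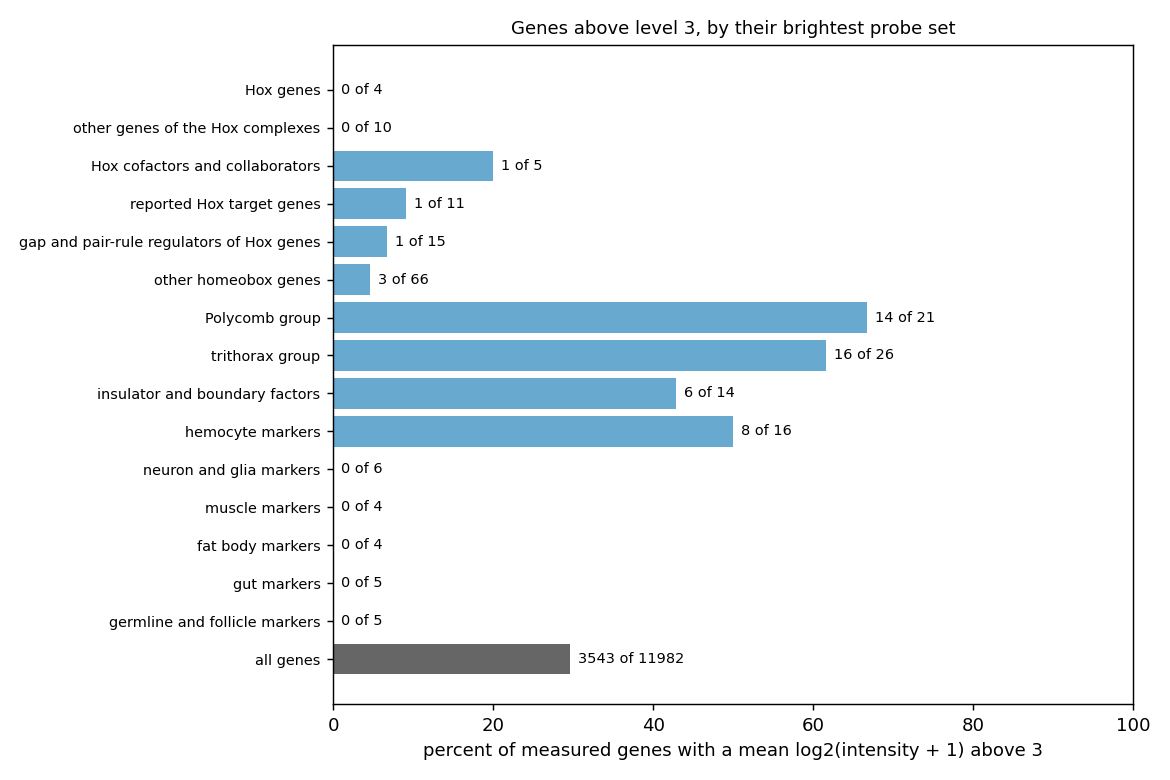
Percent of measured genes (horizontal axis) whose brightest probe set has a mean log2(intensity + 1) above 3, for Hox genes, the gene lists and all genes (vertical axis), with counts beside the bars. Hox genes stand at 0 of 4, Polycomb group genes at 14 of 21, other homeobox genes at 3 of 66 and all genes at 3543 of 11982.

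As a description of likeness over the 8 arrays, the Antp probe set 1640208_s_at was set against 3626 probe sets above level 3 with 1 gene. The closest were IntS1 (Pearson's r 0.89), rtet (0.85) and GAPsec (0.85). They were picked as the highest of many, share the same 8 arrays and follow a probe set whose values span only 1 to 1.31.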

How the data were processed

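The authors deposited 1 linear intensity per probe set and array, with a floor of 1. Per the labels' protocols, biotin labelling of total RNA used an Affymetrix 3' IVT kit. The sources used here do not give the software, background correction or normalization. Of 18952 probe sets, 183 control ones (AFFX) were left out. Platform annotation, updated by gene identifier to RefSeq symbols (13544 matched), gave 13647 probe sets 1 gene, 402 several and 4720 none. Values were analysed as log2(intensity + 1), which understates changes near the floor, with limma 3.58.1 in R 4.3.3, 1 mean per group over all 8 arrays and 4 residual degrees of freedom (prior 1.32). Tests were two-sided, with Benjamini-Hochberg adjustment over all 18769 probe sets. They were tried on simulated data with equal noise, no floor and planted changes only above level 3. That trial does not cover probe sets near the floor, such as those of the Hox genes. No label states that replicate arrays are independent cultures. The p-values therefore reflect the spread among these arrays alone, which may be technical, and their number limits the precision. Members and lists were chosen with earlier results of these data known. Named were all Hox genes, Sting and the Hox probe set with the smallest p per comparison. From each list the 3 brightest genes and the 2 with the smallest p in each mean effect were selected. Only some of these list genes are printed. Flanking genes, cell type markers and further complex and list genes were named after their values were seen. Intensity also depends on the probes, so probe sets of different genes are not ranked.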

Additional observations from a re-analysis of the deposited data

How the results depend on the processing

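Counts of called Hox probe sets were recomputed under 16 alternatives (111 counts over the 7 comparisons), and all stayed at 0, with the lowest adjusted limma p at 0.324. These were a replicate block, quantile normalization, median centring, log2(intensity + 16), trend and robust options of eBayes, the brightest probe set of each gene, fits on fewer arrays or 2 groups, each array left out in turn (0 to 0), and, chosen after seeing the data, both arrays that stand apart left out. With the replicate block the counts were 0, and the labels give no shared batch: same-numbered arrays correlated at -0.49 to 0.21. Filters at the median level or at level 3 left no Hox probe set, so they gave no value. The difference of the Hox probe set with the smallest p kept its sign in 107 of 109 cases. Without replicate 1 of control dsDNA, Antp was exactly 0 for the knockdown in dsDNA-treated cells. It turned its sign in the mean dsDNA effect, which ranged from -0.0024 (without replicate 1 of control dsDNA, its array at 1.21) to 0.070 when each array was left out. None of the Hox probe sets lay above a level of 2, 3 or 4, or above an intensity of 7. Within 10% above the floor lay 37 of 48 Hox values. Over all probe sets, the mean knockdown effect had 0 calls, against 2 with median centring, 1 with log2(intensity + 16), 3 with trend and robust options and 4 with a 2-group fit, none of them a Hox gene. With so few calls over all probe sets, the counts of 0 Hox calls could hardly have come out otherwise.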
